A study of Astatotilapia calliptera and Haplochromis burtoni and Pundamilia nyererei with 40 samples.

Results

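The genes described here are 112 cell cycle and DNA replication genes of the Lake Malawi cichlid Astatotilapia calliptera (AC). They were found by the start of their symbol in the AC gene table, which holds 26977 genes, 16908 of them with a symbol. The starts were those of cyclins of the A, B, D, E and O types (ccna, ccnb, ccnd, ccne, ccno), cyclin-dependent kinases (cdk), cell division cycle genes (cdc) and Cks subunits (cks). For replication they were minichromosome maintenance (mcm) and origin recognition (orc) genes. For division they were Bub and Mad checkpoint genes (bub, mad1l, mad2l), polo and Aurora kinases (plk, aurk), centromere proteins (cenp) and condensin subunits (ncap). Another 11 genes carry such a symbol in capitals and were left out, because the rule reads small letters. They are PLK1, CCND1, CCNO, CCNB1IP1, CDC37, CDK17, CDK18, CDK2AP1 and several CDC42 entries, so that no member is an O cyclin. By roles assigned from their symbols, 72 of the 112 members were grouped under division or replication, and 40 under other or unsure roles. Some of the 40, such as cdc34a and mad2l1bp, also act on the cycle. The 72 in turn include mcm3ap, whose protein acts in nuclear export of messenger RNA, so the grouping is approximate. Pairs of entries share the symbols cdk1, cdc20 and mad2l1 and are told apart by the last digits of their identifiers, as in cdk1-04925. How reads were split within each pair is uncertain.

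Messenger RNA of wild-type fish was sequenced in 20 libraries that bear on these genes, out of 40 in the series. They are testes of Tropheops sp. 'mauve' (TM, 4 libraries) and of Maylandia zebra (MZ, 2 libraries, from dominant males), and from AC the testes (4), ovaries (4), male brains (3) and female brains (3). Ages were not given in the sources used here, except that the MZ males were adult. MZ fish were bred in captivity and came from a commercial supplier, whereas AC and TM fish were grown in the study's tanks. Species and source of the fish therefore cannot be told apart in comparisons with MZ. TM and MZ reads were mapped to the AC genome. Each library is a numbered replicate, so p-values measure the spread between these libraries, which may be partly technical. AC brain libraries were prepared by another protocol than the gonads, so that organ and protocol cannot be told apart in any comparison with brain.

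Cells copy their DNA once per cycle and then divide it. Licensing proteins mark origins and load the MCM helicase, cyclins switch on their kinases in turn, and the spindle checkpoint holds cells in metaphase until the anaphase promoting complex is released. In fish gonads, spermatogonia and oogonia multiply by mitosis before meiosis, eggs store transcripts for the first divisions of the embryo, and most cells of the adult brain do not divide, although teleost brains keep proliferating zones.

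AC libraries held between 18241046 and 22360362 estimated counts in the gonads and between 6728130 and 19685495 in the brains. The testes of the 3 Lake Malawi species held between 23631390 and 26742599 counts of genes and transposable elements (TEs). Levels below are TPM, transcripts per 1000000 and per length of transcript, unless CPM (counts per 1000000, scaled by TMM and not per length) is named. Fold changes (log2FC, with their standard error) come from TMM-scaled counts, so they can differ in sign from the TPM values. AC ovary replicate 1 stood apart, with a TMM factor of 0.544 against 0.947 to 1.12 in the other 13 libraries. Its top 10 genes took 16.6% of its TPM against 6.04% to 7.28% in the other gonads, and it was the lowest ovary for 88 of 103 detected members and for 76.8% of all genes. Neuron markers separated brain from the gonads. Summed neuron markers lay at 22.2 to 37.4 TPM in testes, 8.58 to 25.3 TPM in ovaries and 4287 to 5580 TPM in brains. Oocyte markers lay at 2714 to 4067 TPM in testes, 2729 to 4225 TPM in ovaries and 11.1 to 15.9 TPM in brains, so they did not separate the gonads. Nor did follicle cell markers, at 431 to 726 TPM in testes, 77.1 to 638 TPM in ovaries and 178 to 741 TPM in brains, and neither list checks the ovary label. Meiosis markers separated the gonads, at 526 to 1383 TPM in testes and 17.6 to 66.3 TPM in ovaries, and so did spermatid and sperm markers, at 230 to 2251 TPM in testes and 30.6 to 48.9 TPM in ovaries. In brains these lists lay at 35.0 to 47.5 and 29.8 to 52.2 TPM, overlapping the ovaries. Germ cell markers of both sexes (1380 to 1527 TPM in testes, 432 to 958 TPM in ovaries) also separated the gonads. So did Sertoli and Leydig cell markers (808 to 1168 TPM in testes, 153 to 706 TPM in ovaries).

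Cell cycle genes were far more abundant in both gonads than in brain. Their summed level was 14723 ± 877 TPM in testes (SD, n = 4), 17148 ± 3517 TPM in ovaries (n = 4) and 1754 ± 111 TPM in brains (n = 6), and the median member stood at 39.1 TPM in testes, 33.1 TPM in ovaries and 7.13 TPM in brains. The gene cenps alone made up 27.6% of the sum in testes and 49.5% in ovaries. The sums therefore do not rank the gonads, and the medians had the reverse order. For all genes tested the medians were 8.71 TPM in testes, 6.38 TPM in ovaries and 10.5 TPM in brains. The contrast was widest in the division and replication roles, whose median was 51.1 TPM in testes, 34.5 TPM in ovaries and 4.29 TPM in brains, whereas members with other roles had medians of 26.8 TPM in testes, 17.9 TPM in ovaries and 19.03 TPM in brains. A mean of at least 1 TPM was reached by 104 members in testes, 103 in ovaries and 99 in brains. Counted by calls, 64 of 71 division and replication genes were higher and 1 lower in testes than in brain (median log2FC 4.19), and 21 of 38 members with other roles were higher and 8 lower (median log2FC 1.02, beside 0.06 for all genes). In ovary 60 and 20 were higher and 2 and 7 lower than in brain. In bulk tissue, fewer cells of a type and less RNA per cell cannot be told apart.

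Of 109 members tested, 85 were higher and 9 lower in testes than in brain by edgeR's quasi-likelihood test (adjusted p under 0.05 over all genes), and 80 were higher and 9 lower in ovary than in brain. Among all genes tested, 36.5% were higher and 34.7% lower in testes than in brain, and 35.6% higher and 37.2% lower in ovary than in brain. The median log2FC of the members was 2.33 for testes and 2.11 for ovary, beside 0.06 and -0.08 for all genes. Libraries of the organs did not overlap for 89 members between testes and brain (69% of all genes) and for 66 between ovary and brain (55.5% of all genes). Both gonads share the brain libraries as their reference, and 75 members were higher than brain in both, 7 lower in both, 9 called for testes alone and 5 for ovary alone. Between the gonads themselves 36 of 109 members were called, against 30.4% of all genes tested. Of these, 18 were higher and 18 lower in testes than in ovary (16.2% and 14.2% of all genes), and 33 members did not overlap (27.8% of all genes). The members' median log2FC between testes and ovary was 0.01, beside 0.02 for all genes. The lower calls depended on the scale, since limma on log2(TPM + 1) called 19 members higher and 3 lower in testes. Over all genes limma called 3375 higher and 944 lower, where edgeR called 3394 and 2960. Of the 18 lower member calls 7 held when each library was left out, against 12 of the 18 higher calls.

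**Figure D1:**
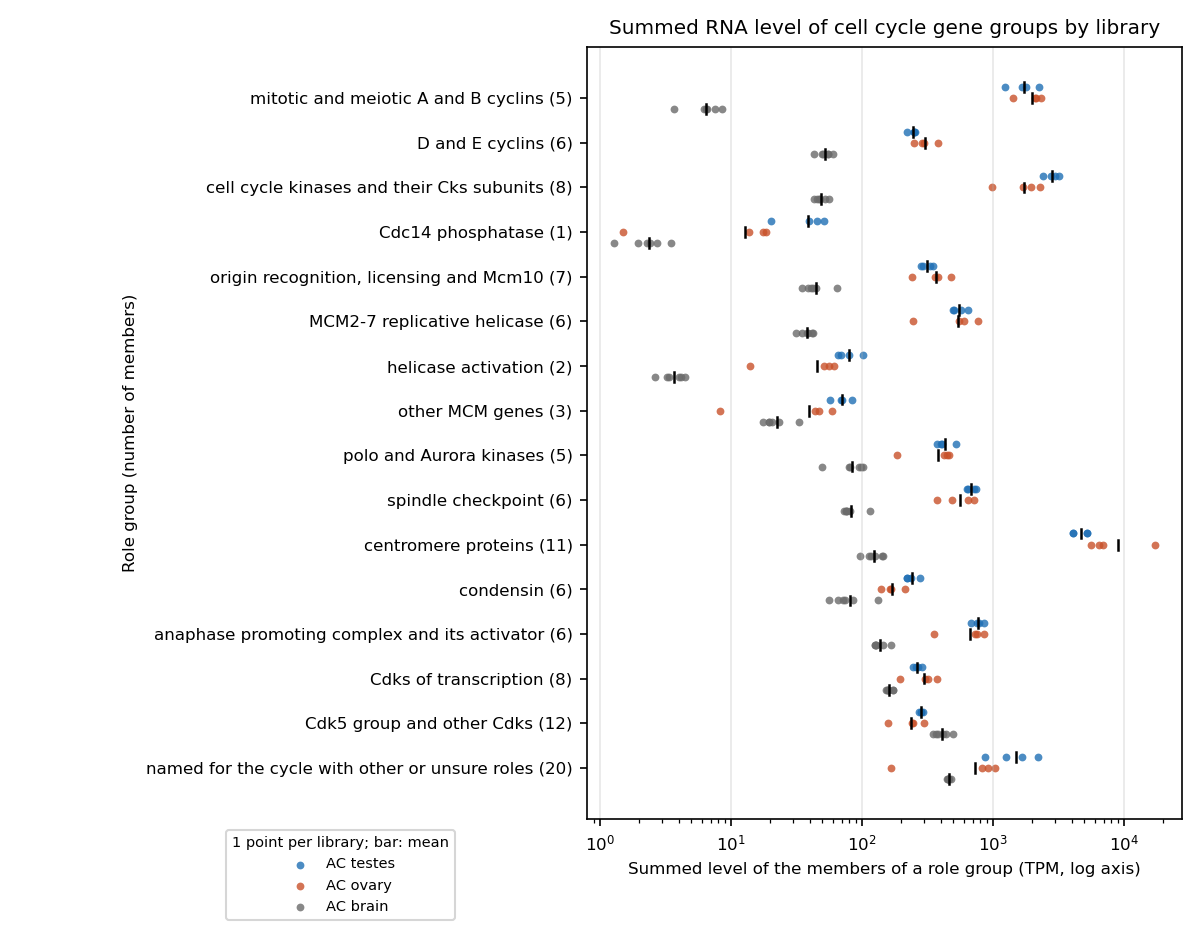
Summed level of the members of each role group in TPM on a log axis, 1 point per AC library and a bar at the mean, with testes above ovary above brain in each group and the number of members in brackets. Brain libraries lie far to the left for the A and B cyclins and the kinases with their Cks subunits, and are highest only for the Cdk5 group; AC ovary replicate 1 is the low ovary point in most groups.

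The A and B cyclins, which carry cells through division, showed the widest gap to brain. All 5 members were higher in each gonad than in brain. None was called between the gonads by edgeR, where 1 had an unadjusted p under 0.05, or by limma, and DESeq2 called 1 lower in testes. Cyclin B1 (ccnb1) is the main partner of Cdk1 at mitotic and meiotic entry. It was at 423, 798, 425 and 749 TPM in testes and 527, 698, 919.5 and 877 TPM in ovaries, and at 0.394, 0.703 and 1.93 TPM in brains (lowest, median and highest of 6). Every gonad library was far above every brain, and no brain reached 2 TPM. The log2FC of ccnb1 was 9.54 ± 0.46 for testes over brain (adjusted p = 7.42e-10) and 10.34 ± 0.47 for ovary over brain (adjusted p = 3.33e-10). Between testes and ovary it was -0.80 ± 0.38, adjusted p = 0.123. Cyclin B2 (ccnb2), another B cyclin, was at 445, 548, 598 and 581 TPM in testes and 587, 771, 766 and 714 TPM in ovaries. Brains held 0.0873, 0.455 and 0.907 TPM, and the log2FC over brain was 10.09 for testes and 11.05 for ovary. Between the gonads ccnb2 was close to the threshold (log2FC -0.96 ± 0.36, adjusted p = 0.05398). It was called lower in testes without AC ovary replicate 2 or 4, with adjusted p down to 0.0411. Cyclin A2 (ccna2), which acts in S phase and at mitotic entry, was at 307, 265, 695 and 881 TPM in testes and 306, 589.7, 621 and 490.5 TPM in ovaries. In brains it was at 0.936, 2.61 and 3.36 TPM. Its testes libraries fell into a low pair, replicates 1 and 2, and a high pair, replicates 3 and 4. Cyclin A1 (ccna1), a germ line cyclin in mouse, was at 20.2, 11.1, 22.7 and 4.39 TPM in testes and 2.697, 13.5, 8.904 and 9.57 TPM in ovaries, with 0.377, 0.87 and 1.91 TPM in brains. The meiotic cyclin B3 (ccnb3) was at 37.5, 33.2, 57.2 and 28.9 TPM in testes and 6.098, 31.9, 20.6 and 33.1 TPM in ovaries, with 1.04, 1.49 and 2.87 TPM in brains. Both were much lower than the mitotic cyclins in the gonads and higher there than in brain.

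The D and E cyclins, which act at entry into the cycle, were split between the gonads. Of 5 tested, 1 was higher and 3 lower in testes than in ovary (80% called, beside 30.4% of all genes). Among the lower calls, that of ccne1 held when each library was left out. Those of ccnd2a and ccnd2b were lost without any 1 of 6 and any 1 of 5 libraries. The gene ccndx had 0 counts in the 4 testes, 3 in the 4 ovaries and 11 in the 6 brains and was too low to test. Cyclin D3 (ccnd3) was at 51.1, 22.7, 40.9 and 12.9 TPM in testes and 1.17, 2.37, 6.502 and 5.36 TPM in ovaries, with 0.0417, 0.172 and 0.689 TPM in brains. Every testes library exceeded every ovary library, and the log2FC was 2.25 ± 0.44, adjusted p = 0.00186. Cyclin E1 (ccne1), partner of Cdk2 at the start of S phase, went the other way, at 50.9, 48.8, 50.02 and 52.8 TPM in testes and 68.3, 105, 105 and 90.3 TPM in ovaries. Brains held 15.02, 24.5 and 26.98 TPM. The testes libraries lay within a narrow band below all 4 ovaries (log2FC -1.10 ± 0.20, adjusted p = 0.00103), and both gonads were above brain. Cyclin E2 (ccne2) was at 115, 121, 124.7 and 153 TPM in testes and 279, 129.7, 127 and 114 TPM in ovaries, and at 0.334, 0.997 and 1.42 TPM in brains. AC ovary replicate 1 stood above the other ovaries, and ccne2 was not called between the gonads (adjusted p = 0.0756, down to 0.0373 without AC ovary replicate 2 or 4). Cyclin D2 (ccnd2a) was at 10.2, 4.05, 5.25 and 2.91 TPM in testes and 4.97, 15.1, 10.3 and 16.2 TPM in ovaries, with 8.34, 12.02 and 17.5 TPM in brains. It was called against brain neither in testes (adjusted p = 0.141, 0.0294 without AC testes replicate 1) nor in ovary (adjusted p = 0.196). Its lower level in testes than in ovary (log2FC -1.24 ± 0.43, adjusted p = 0.0414) passed the test in few settings. The adjusted p reached 0.105 when single libraries were left out (ovary replicates 2, 3 and 4, testes replicates 2, 3 and 4).

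The kinases that cyclins activate and their Cks subunits were grouped with the Cdk2-associated gene cdk2ap2. In this group all 8 members were higher in testes than in brain, and 6 were higher in ovary than in brain. Testes were above ovary for 3 of the group and below for 1 (50% called, beside 30.4% of all genes). The main cdk1 entry (cdk1-04925), the kinase of mitosis and meiosis, was at 845, 733, 1203 and 406 TPM in testes and 289.9, 326, 348 and 411 TPM in ovaries. Brains held 4.85, 8.88 and 11.7 TPM. It was not called between the gonads over all libraries (log2FC 0.70 ± 0.32, adjusted p = 0.114), but it was called higher in testes without AC ovary replicate 1 (adjusted p = 0.0143). The other cdk1 entry (cdk1-04173) had 227 counts in testes, 102 in ovaries and 1 in brains. Its counts differed strongly between the deposited salmon and TEtranscripts tables. The small Cdk-binding subunits Cks1b and Cks2 differed from each other. The level of cks1b was 1536, 1955, 1449 and 1796 TPM in testes and 661, 1221, 1519 and 1725 TPM in ovaries, with 0.867, 1.37 and 2.31 TPM in brains. By TPM it was the next most abundant member after cenps in both gonads. It was not called between them (log2FC -0.35 ± 0.29, adjusted p = 0.396). The level of cks2 was 157, 110.1, 226 and 76.9 TPM in testes and 17.3, 34.6, 26.8 and 31.98 TPM in ovaries, with 0.37, 0.712 and 1.33 TPM in brains. All 4 testes exceeded all 4 ovaries for cks2 (log2FC 1.66 ± 0.37, adjusted p = 0.00456), a call that held when each library was left out.

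Cdk2 (cdk2) and Cdk6 (cdk6), kinases of the G1 and S phases, were called in opposite directions between the gonads. The level of cdk2 was 77.1, 51.9, 101 and 55.1 TPM in testes and 0.276, 23.5, 15.7 and 23.1 TPM in ovaries, with 3.698, 5.93 and 16.9 TPM in brains. It was higher in testes than in ovary (log2FC 2.07 ± 0.68, adjusted p = 0.0337). That call was lost without AC ovary replicate 3 or AC testes replicate 1 or 3, with adjusted p up to 0.0836. The level of cdk6 was 7.299, 6.35, 6.96 and 6.47 TPM in testes and 7.64, 22.3, 11.5 and 13.3 TPM in ovaries, with 2.95, 3.702 and 6.47 TPM in brains. It was lower in every testis than in every ovary (log2FC -1.45 ± 0.29, adjusted p = 0.00212). Its excess over brain in testes was small (log2FC 0.66 ± 0.26, adjusted p = 0.0344). The excess was lost without any 1 of 9 libraries (any female brain or testes library, or AC male brain replicate 2 or 3), with adjusted p up to 0.0799. Cdk4 (cdk4) was at 11.8, 42.4, 26.4 and 12.5 TPM in testes and 1.62, 8.93, 3.67 and 27.4 TPM in ovaries, with 5.16, 9.55 and 10.4 TPM in brains. It was just past the threshold in testes over brain (adjusted p = 0.0499, up to 0.249 without single brain libraries or AC testes replicate 2 or 3). In ovary over brain it was not called (adjusted p = 0.575). The Cdk2-associated gene cdk2ap2 was at 112, 79.5, 158 and 53.4 TPM in testes and 2.65, 47.9, 21.7 and 35.01 TPM in ovaries (log2FC 1.79 ± 0.51, adjusted p = 0.0173), a call lost without AC testes replicate 3 (adjusted p = 0.0587). The phosphatase gene cdc14ab, whose yeast relative reverses Cdk phosphorylation at the end of mitosis, was at 45.03, 39.2, 51.2 and 20.3 TPM in testes and 1.51, 17.7, 13.7 and 18.5 TPM in ovaries. In brains it was at 1.29, 2.35 and 3.52 TPM. It was higher in testes than in ovary (log2FC 1.50 ± 0.47, adjusted p = 0.0258), but not without AC testes replicate 1, 2 or 3 (adjusted p up to 0.069).

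**Figure D2:**
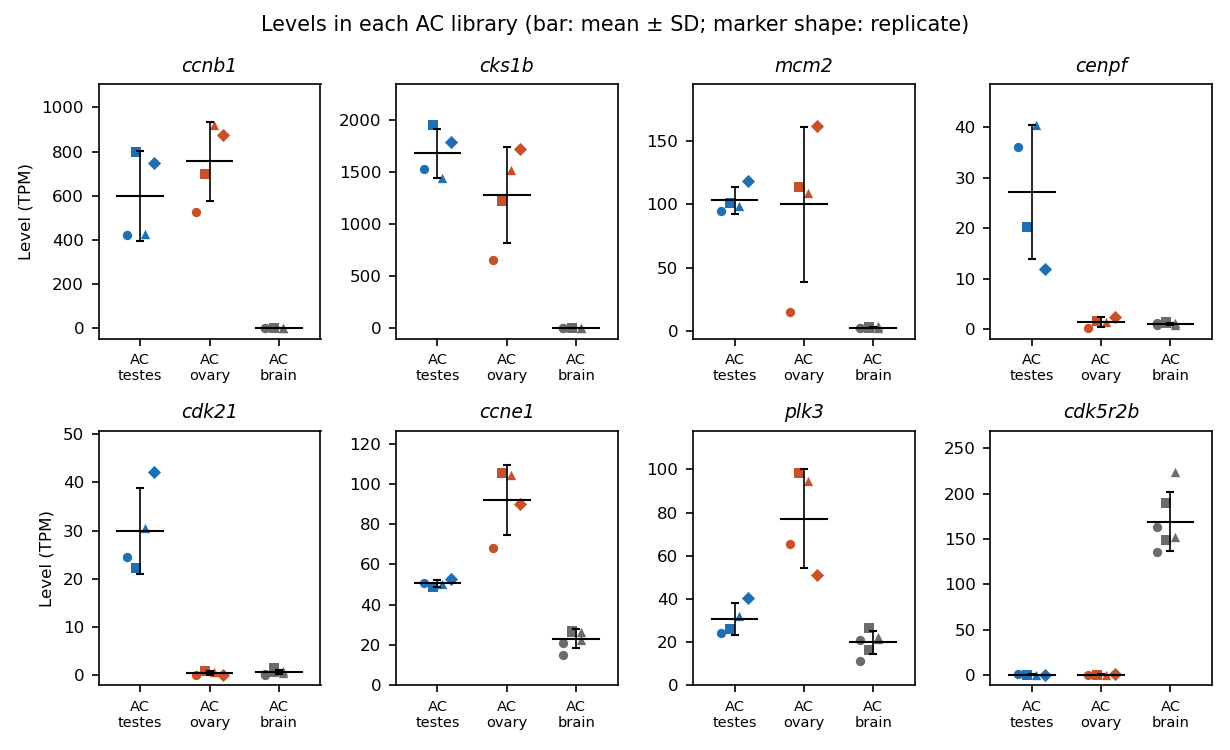
Level in TPM of 8 members in each AC library, with testes left of ovary left of brain, marker shapes for replicates and a bar for the mean with its SD. Testes and ovary points overlap for ccnb1, cks1b and mcm2, testes points stand above all others for cenpf and cdk21, ovary points stand above testes points for ccne1 and plk3, and brain points alone are high for cdk5r2b.

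The replication machinery was above brain in both gonads. All 7 genes of origin recognition, licensing and Mcm10, all 6 subunits of the MCM2-7 helicase and both helicase activation genes were higher in each gonad than in brain. None of these 15 was called between testes and ovary by edgeR (4 had an unadjusted p under 0.05) or by limma, while DESeq2 called 3 lower in testes. The level of mcm2 was 94.6, 101, 98.5 and 119 TPM in testes and 15.4, 113, 109 and 162 TPM in ovaries, with 2.17, 2.53 and 3.91 TPM in brains. Between the gonads its log2FC was -0.02 ± 0.38, adjusted p = 0.983. Testes replicates were close together, while the ovaries spread widely, with AC ovary replicate 1 lowest. The most abundant subunit gene, mcm7, was at 167, 219.8, 173 and 227 TPM in testes and 123, 178, 220.2 and 276 TPM in ovaries, with 16.3, 18.3 and 20.2 TPM in brains. It also had the highest level of the 6 in brain. Over the 6 subunits the log2FC over brain lay between 3.90 and 5.83 in testes and between 3.71 and 5.84 in ovary, and between -0.33 and 0.20 for testes over ovary. Among the licensing genes, cdc6, which loads the helicase onto origins, had the largest difference from brain. Its level was 67.7, 85.8, 84.5 and 97.4 TPM in testes and 59.8, 108, 124 and 151 TPM in ovaries, with 0.433, 0.639 and 0.855 TPM in brains (log2FC over brain 7.44 for testes and 8.01 for ovary). It was near the threshold between the gonads (adjusted p = 0.0557). Without AC ovary replicate 1 or 2 or AC testes replicate 4 it was called lower in testes, with adjusted p down to 0.0152. The origin recognition gene orc1 was at 29.7, 37.99, 25.1 and 36.8 TPM in testes and 41.1, 39.1, 40.1 and 59.3 TPM in ovaries, with 4.43, 5.37 and 13.6 TPM in brains. The helicase activator gene cdc45 was at 26.5, 17.3, 42.2 and 17.996 TPM in testes and 11.9, 21.9, 12.2 and 13.7 TPM in ovaries, with 1.901, 2.35 and 2.94 TPM in brains. Neither was called between the gonads. Of 3 other MCM genes, mcm8 and mcm9, which act in homologous recombination, were also not called there (adjusted p = 0.536 and 0.6896). The gene mcm3ap, whose protein acts in nuclear export of messenger RNA, was at 34.4, 30.1, 40.98 and 18.6 TPM in testes and 2.27, 15.02, 13.1 and 18.4 TPM in ovaries. Its testes exceeded its ovaries without overlap (log2FC 1.24 ± 0.35, adjusted p = 0.0166), but the adjusted p was 0.0507 without AC testes replicate 3.

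Polo and Aurora kinases act at centrosomes, centromeres and the spindle, and among them was the only division gene called lower than brain in both gonads. This was plk2b, of a polo kinase known from activated neurons in rodents. It was at 1.56, 1.61, 1.91 and 0.916 TPM in testes and 1.099, 8.07, 3.29 and 1.298 TPM in ovaries, with 24.4, 54.6 and 66.2 TPM in brains (log2FC over brain -4.99 for testes and -3.53 for ovary). The related plk3 was at 24.1, 25.97, 32.2 and 40.6 TPM in testes and 65.3, 98.2, 94.4 and 50.8 TPM in ovaries, with 11.01, 21.2 and 26.7 TPM in brains. It was lower in every testis than in every ovary (log2FC -1.81 ± 0.35, adjusted p = 0.00163). It exceeded brain in ovary (log2FC 2.56 ± 0.31, adjusted p = 4.03e-06) and only narrowly in testes (log2FC 0.75 ± 0.30, adjusted p = 0.0399). The testes call was lost without AC female brain replicate 1, any male brain or AC testes replicate 2, 3 or 4, with adjusted p up to 0.156. The opposite direction between the gonads was found for plk4, the kinase that starts centriole duplication. It was at 124, 151, 183 and 79.3 TPM in testes and 6.58, 80.8, 45.9 and 79.01 TPM in ovaries, with 1.45, 2.82 and 6.503 TPM in brains. Its libraries overlapped between the gonads, and the call of higher levels in testes (log2FC 0.88 ± 0.28, adjusted p = 0.02701) was lost without AC testes replicate 1, 2 or 3 (adjusted p up to 0.0706). The Aurora kinases were not called between the gonads. The level of aurka was 94.3, 67.6, 118 and 65.7 TPM in testes and 16.7, 64.3, 71.2 and 92.9 TPM in ovaries, with 2.404, 5.63 and 7.28 TPM in brains. The level of aurkb was 157, 165, 189.9 and 189 TPM in testes and 94.8, 197, 208 and 235 TPM in ovaries, with 1.401, 3.69 and 5.54 TPM in brains.

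None of the 6 spindle checkpoint genes was called between testes and ovary by edgeR (1 had an unadjusted p under 0.05) or by limma, and DESeq2 called 1 higher in testes. In testes 4 of them were higher than in brain and in ovary 5. The Mad2 protein blocks the anaphase promoting complex, and its gene has a pair of entries. The level of mad2l1-05690 was 284, 281, 320.4 and 357 TPM in testes and 298, 218, 338 and 369.7 TPM in ovaries, with 4.37, 4.96 and 10.04 TPM in brains. The level of mad2l1-05723 was 117, 128, 142 and 129 TPM in testes and 25.03, 121, 135 and 140.2 TPM in ovaries, with 0.404, 1.87 and 3.73 TPM in brains. Both entries averaged over 100 TPM in each gonad and were far lower in every brain, and AC ovary replicate 1 was the low ovary for mad2l1-05723. The checkpoint gene bub1bb was at 49.5, 46.6, 61.2 and 48.5 TPM in testes and 26.1, 33.8, 36.2 and 40.01 TPM in ovaries, with 1.26, 1.49 and 2.62 TPM in brains. Its partner bub3 was at 97.8, 101, 124 and 97.4 TPM in testes and 6.63, 51.4, 63.8 and 72.6 TPM in ovaries, with 11.4, 13.4 and 17.1 TPM in brains. Every testis was above every ovary for bub3, but it passed the threshold only without AC ovary replicate 1 or 4 (adjusted p = 0.0645 over all libraries, down to 0.0168).

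The anaphase promoting complex and its activator held 5 members higher in testes and 4 higher in ovary than in brain, out of 6. The main cdc20 entry (cdc20-24161), the activator that triggers anaphase, was at 358, 489, 481 and 479 TPM in testes and 224, 566, 547 and 608 TPM in ovaries, with 1.99, 2.88 and 5.62 TPM in brains. The other entry, cdc20-24206, had 744 counts in testes, 1378 in ovaries and 2 in brains. The core subunit gene cdc27 was the 1 member called between the gonads, at 171, 142, 228 and 129.9 TPM in testes and 33.96, 71.9, 83.8 and 98.9 TPM in ovaries (log2FC 1.03 ± 0.22, adjusted p = 0.00291). Its testes libraries all exceeded its ovary libraries, and the call held when each library was left out.

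Centromere proteins build the platform for spindle attachment. The genes with symbols that start with cenp were grouped under this name, although the symbol alone does not show that role for each. They held the most abundant member by TPM and several of the widest contrasts between the gonads. All 11 were higher in testes than in brain and 9 in ovary than in brain. Between the gonads 2 were higher and 3 lower in testes (none lower by limma), so that 45.5% were called, beside 30.4% of all genes. The gene cenps (chromosome 5, 16258861 to 16264291 in fAstCal1.2) encodes a protein that pairs with CENP-X at centromeres and at stalled replication forks. It was at 3527, 4658, 3361 and 4719 TPM in testes and 16864, 5034, 5826 and 6253 TPM in ovaries, with 51.9, 72.5 and 96.8 TPM in brains. It made up 27.6% of the summed member TPM in testes and 49.5% in ovaries. That rank rests on the scaling by length. In estimated counts cenps had 6019, 8844, 6150 and 9020 in testes, below 19274, 27193, 20348 and 26880 for cks1b. In ovaries it had 39886, 8718, 10914 and 10739, beside 19088, 19529, 25586 and 26166 for cks1b. All testes were below all ovaries for cenps (log2FC -2.03 ± 0.63, adjusted p = 0.0252), but AC ovary replicate 1 stood far above the other ovaries. Without that library, or without AC testes replicate 1 or 3, the call was lost. The adjusted p then reached 0.109, and the log2FC came as close to 0 as -0.50. Its partner gene cenpx was at 43.2, 40.6, 47.4 and 40.2 TPM in testes and 23.7, 22.9, 20.9 and 22.98 TPM in ovaries, with no call between the gonads (adjusted p = 0.421).

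The large kinetochore gene cenpf (chromosome 1, 24143819 to 24163667) was at 36.2, 20.2, 40.4 and 12.02 TPM in testes and 0.204, 1.66, 1.47 and 2.49 TPM in ovaries, with 0.768, 1.19 and 1.37 TPM in brains. It was high in testes alone, and its log2FC over ovary was 4.08 ± 0.50, adjusted p = 6.61e-05. Its small excess over brain in ovary (log2FC 1.22 ± 0.41, adjusted p = 0.0152) was lost without AC ovary replicate 4 (adjusted p = 0.0787). The reverse order was seen for cenpn, of the constitutive centromere network, at 173, 265, 241 and 247 TPM in testes and 275, 345, 346 and 401 TPM in ovaries. Brains held 0.665, 0.989 and 1.92 TPM, and the log2FC of testes over ovary was -1.19 ± 0.32, adjusted p = 0.0122. The gene cenpl, of the same network, was at 31.1, 29.7, 35.5 and 31.1 TPM in testes and 29.05, 34.4, 43.3 and 48.4 TPM in ovaries. Its call (log2FC -0.89 ± 0.30, adjusted p = 0.0378) was lost without any 1 of 6 libraries (AC ovary replicate 1 or 3, or any testes replicate), with adjusted p up to 0.0948. The gene cenpv was at 77.6, 43.7, 125.0 and 14.2 TPM in testes and 4.62, 19.03, 8.79 and 8.73 TPM in ovaries, with 10.8, 14.95 and 22.6 TPM in brains. Its testes libraries were 3 high and 1, replicate 4, within the range of the ovaries (log2FC 2.28 ± 0.56, adjusted p = 0.00721). The shared start of these symbols does not mark them as relatives of each other.

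Condensin compacts chromosomes, and its non-SMC subunits come in a condensin I set (ncapd2, ncapg, ncaph) and a condensin II set (ncapd3, ncapg2, ncaph2). Of these 6 genes, 5 were higher than brain in each gonad. The exception was ncapd2, at 31.2, 30.1, 44.3 and 34.8 TPM in testes and 4.52, 25.8, 20.4 and 24.6 TPM in ovaries, with 36.1, 55.7 and 116 TPM in brains. It was lower in ovary than in brain (log2FC -1.04 ± 0.29, adjusted p = 0.00493) and not called in testes against brain (adjusted p = 0.362). Between the gonads ncapg2 was higher in testes, at 28.04, 22.9, 35.9 and 24.95 TPM in testes and 0.828, 7.21, 7.204 and 10.6 TPM in ovaries (log2FC 2.0 ± 0.46, adjusted p = 0.00515). So was ncaph, at 45.6, 45.04, 64.1 and 43.7 TPM in testes and 5.21, 23.4, 20.3 and 31.6 TPM in ovaries (log2FC 1.14 ± 0.36, adjusted p = 0.0262), but not without AC ovary replicate 3 or AC testes replicate 3 (adjusted p up to 0.0727). The level of ncapg was 52.2, 54.8, 65.9 and 64.1 TPM in testes and 60.7, 57.02, 56.6 and 69.5 TPM in ovaries, with 0.969, 1.41 and 1.92 TPM in brains. The level of ncapd3 was 35.5, 38.7, 40.3 and 41.3 TPM in testes and 29.6, 31.4, 32.9 and 46.1 TPM in ovaries, with 2.12, 2.59 and 3.14 TPM in brains. Neither was called between the gonads (adjusted p = 0.1903 and 0.422). Of the 6 condensin genes 33.3% were called there, beside 30.4% of all genes.

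**Figure D3:**
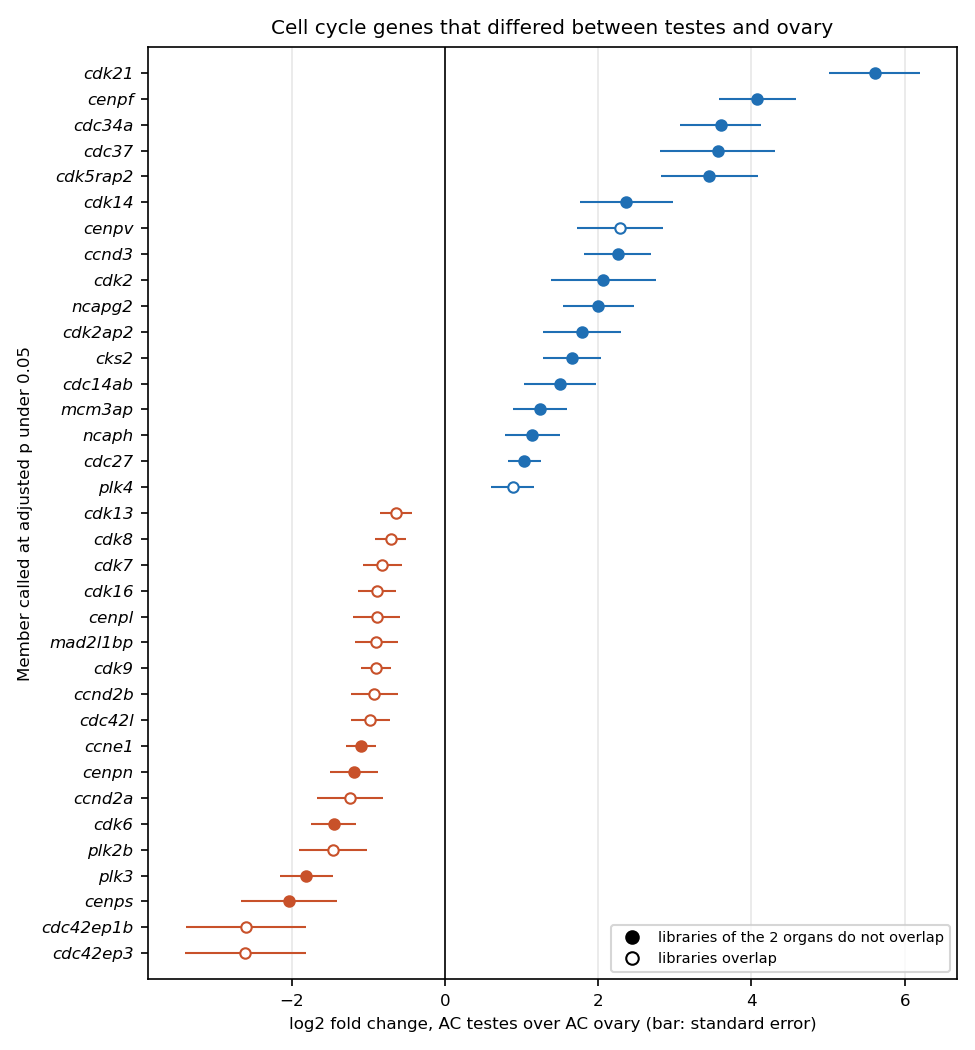
Log2FC of AC testes over AC ovary with its standard error for 35 of the 36 members called at adjusted p under 0.05, with filled points where the libraries of the organs do not overlap. The member left out is cdk5r1b, whose 4 ovaries hold 1 count in all; members above 0 (higher in testes) reach from plk4 to cdk21 and are mostly filled, and most members below 0 overlap between the organs.

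Several members carry cycle names but act elsewhere. Of 38 members tested that were grouped under other or unsure roles, 9 were lower in testes than in ovary and 6 were higher. In all 39.5% of them were called, beside 30.4% of all genes (14.2% lower and 16.2% higher). The kinases of transcription held 4 of the lower calls among 7 tested (57.1%, beside 14.2% of all genes called lower) and none of the higher ones. They were cdk7, of the general factor TFIIH (log2FC -0.82 ± 0.25, adjusted p = 0.0234), cdk8, of the Mediator complex (-0.71 ± 0.20, adjusted p = 0.0167), cdk9, of the elongation factor P-TEFb (-0.90 ± 0.20, adjusted p = 0.00363), and cdk13, an elongation kinase (-0.64 ± 0.21, adjusted p = 0.0328). For each of these 4 the testes and ovary libraries overlapped in TPM, and limma called none of them.

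The Cdk5 group was divided against brain. Cdk5 is a kinase of postmitotic neurons that needs an activator protein of the p35 or p39 type. Of 12 tested, 5 were higher and 5 lower in testes than in brain, and 4 higher and 4 lower in ovary than in brain, with a median log2FC of -0.015 and -0.036. All genes were split in a similar way, with 36.5% higher and 34.7% lower in testes and 35.6% higher and 37.2% lower in ovary. The activator gene cdk5r2b was at 0.543, 0.143, 0.291 and 0.428 TPM in testes and 0.0968, 0.376, 0.461 and 0.859 TPM in ovaries. Brains held 136, 157 and 224 TPM, which made it the most abundant member there by TPM (log2FC -8.45 ± 0.46, adjusted p = 2.06e-09 for testes and -7.95 ± 0.45, adjusted p = 2.23e-09 for ovary). The activator gene cdk5r1a had 3 counts in the 4 testes, 0 in the 4 ovaries and 409 in the 6 brains. In CPM it was at least 171-fold lower in ovary than in brain, against a floor of 3 counts over the ovaries. Its copy cdk5r1b was at 0.686, 0.502, 0.574 and 0.367 TPM in testes and 46.3, 61.6 and 92.4 TPM in brains, with 1 count in all 4 ovaries. The kinase gene cdk5 itself was at 71.7, 73.02, 86.5 and 73.1 TPM in testes and 6.52, 77.8, 79.1 and 98.1 TPM in ovaries, with 32.7, 37.1 and 43.9 TPM in brains. It was above brain in testes (log2FC 1.06 ± 0.37, adjusted p = 0.01901) and in ovary (log2FC 1.0 ± 0.37, adjusted p = 0.0241). The ovary call was lost without AC ovary replicate 3 or 4 (adjusted p up to 0.09104), and with DESeq2, total counts or limma (up to 0.708). The testes call of cdk5 was lost with total counts or limma (adjusted p up to 0.142). The lower levels of the 3 activator genes than in brain passed the test in both gonads under every alternative run. Neuron markers moved with the activators, at 4287 to 5580 TPM in brains, and their part in the result was not tested.

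Related kinases of this group also parted. The level of cdk14, of a membrane-bound kinase that works with cyclin Y, was 1.305, 1.07, 1.61 and 0.5101 TPM in testes and 0, 0.399, 0.242 and 0.0976 TPM in ovaries. Brains held 11.6, 21.8 and 27.4 TPM. It was higher in testes than in ovary (log2FC 2.37 ± 0.60, adjusted p = 0.00949) and lower than brain in both. The level of cdk16, needed for sperm formation in mouse, was 63.7, 56.3, 52.6 and 58.96 TPM in testes and 55.7, 72.8, 70.5 and 89.1 TPM in ovaries, with 22.3, 25.3 and 34.03 TPM in brains. It was lower in testes than in ovary (log2FC -0.89 ± 0.25, adjusted p = 0.0143) and above brain in both. The level of cdk17 was 4.41, 3.83, 4.63 and 5.17 TPM in testes and 0.0479, 12.5, 4.96 and 8.41 TPM in ovaries, with 17.4, 21.4 and 23.7 TPM in brains. It was lower in testes than in brain (log2FC -1.69 ± 0.67, adjusted p = 0.0357). The adjusted p of that call reached 0.0807 when any 1 of 9 libraries was left out, namely any female brain or testes library or AC male brain replicate 1 or 2. A gene with this symbol in capitals, CDK17, outside the rule, was at 13.4, 13.7, 11.2 and 14.9 TPM in testes and 9.85 to 14.5 TPM in brains. Testes were not called against brain for CDK17 (log2FC 0.77, adjusted p = 0.124). The Cdk5-binding centrosome gene cdk5rap2 was at 34.8, 24.8, 35.2 and 10.1 TPM in testes and 0.338, 3.46, 1.66 and 3.27 TPM in ovaries, with 0.966, 2.84 and 7.19 TPM in brains. It was high in testes alone (log2FC over ovary 3.45 ± 0.63, adjusted p = 0.00116).

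For testes over ovary, cdk5r1b was not ranked, because its ovaries held 1 count in all. Of the other members called higher in testes than in ovary, cdk21 (chromosome 4, 6988939 to 6996170) had the largest log2FC. It was at 24.5, 22.3, 30.6 and 42.2 TPM in testes and 0.1702, 0.905, 0.704 and 0.201 TPM in ovaries, with 0.161, 0.6002 and 1.45 TPM in brains. The log2FC was 5.61 ± 0.59, adjusted p = 2.60e-05 over ovary and 5.67 ± 0.51, adjusted p = 2.69e-07 over brain. Ovary was not called against brain (adjusted p = 0.925). The ubiquitin-conjugating enzyme gene cdc34a (chromosome 23, 3676481 to 3687830), which marks cell cycle inhibitors for degradation, was at 993, 599, 1523 and 146 TPM in testes and 8.02, 79.2, 87.96 and 75.7 TPM in ovaries. Brains held 4.07, 7.42 and 12.3 TPM, and the log2FC of testes over ovary was 3.60 ± 0.53, adjusted p = 2.49e-04. The level of cdc37, of a co-chaperone that loads kinases onto Hsp90, was 9.103, 6.37, 11.4 and 3.26 TPM in testes and 0, 1.53, 0.471 and 0.286 TPM in ovaries (log2FC 3.56 ± 0.75, adjusted p = 0.00296). A more abundant gene with this symbol in capitals, outside the rule, was at 65.3, 66.8, 65.7 and 75.9 TPM in testes. Ovaries held 27.8, 48.2, 42.5 and 43.4 TPM of CDC37, which was not called between the gonads (log2FC 0.21, adjusted p = 0.486). The effectors of the small GTPase Cdc42, which shape the cytoskeleton, included genes with more RNA in brain than in testes. The level of cdc42ep1b was 0.287, 0.202, 0.204 and 0.806 TPM in testes and 0.261, 6.48, 1.84 and 0.497 TPM in ovaries, with 39.6, 55.9 and 89.6 TPM in brains. The level of cdc42ep3 was 0.816, 1.09, 0.339 and 0.661 TPM in testes and 0.357, 11.1, 4.84 and 1.06 TPM in ovaries, with 3.72, 14.7 and 19.9 TPM in brains. Both were lower in testes than in brain (log2FC -6.73 ± 0.87, adjusted p = 8.51e-06 and -3.81 ± 0.79, adjusted p = 6.36e-04), and cdc42ep1b was also lower in ovary than in brain (log2FC -4.13 ± 0.74, adjusted p = 1.64e-04). Between testes and ovary their libraries overlapped.

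Members were not equally stable between AC testes libraries. Between the highest and the lowest of the 4 testes, cdc34a varied 10.5-fold, from replicate 3 through replicates 1 and 2 down to replicate 4 in the values given above. Summed spermatid and sperm markers had the same order, at 1370, 909, 2251 and 230 TPM in replicates 1 to 4, and summed meiosis markers as well, at 958, 686, 1383 and 526 TPM. Of 104 members with at least 1 TPM, 33 (31.7%) were highest in replicate 3 and lowest in replicate 4, beside 23.1% of all genes. Of 17 such members called higher in testes than in ovary, 13 (76.5%) had that order of extremes, beside 57.2% of all genes called higher. The share was 2 of 16 called lower (12.5%, beside 10.1% of all genes) and 18 of 70 not called (25.7%, beside 17.9%). Members with that order include cenpf, cdk1-04925 and cks2, whereas cks1b, cenps and ccnb1 were lowest in replicate 1 or 3. The part of these marker differences in the testes levels was not tested.

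**Figure D4:**
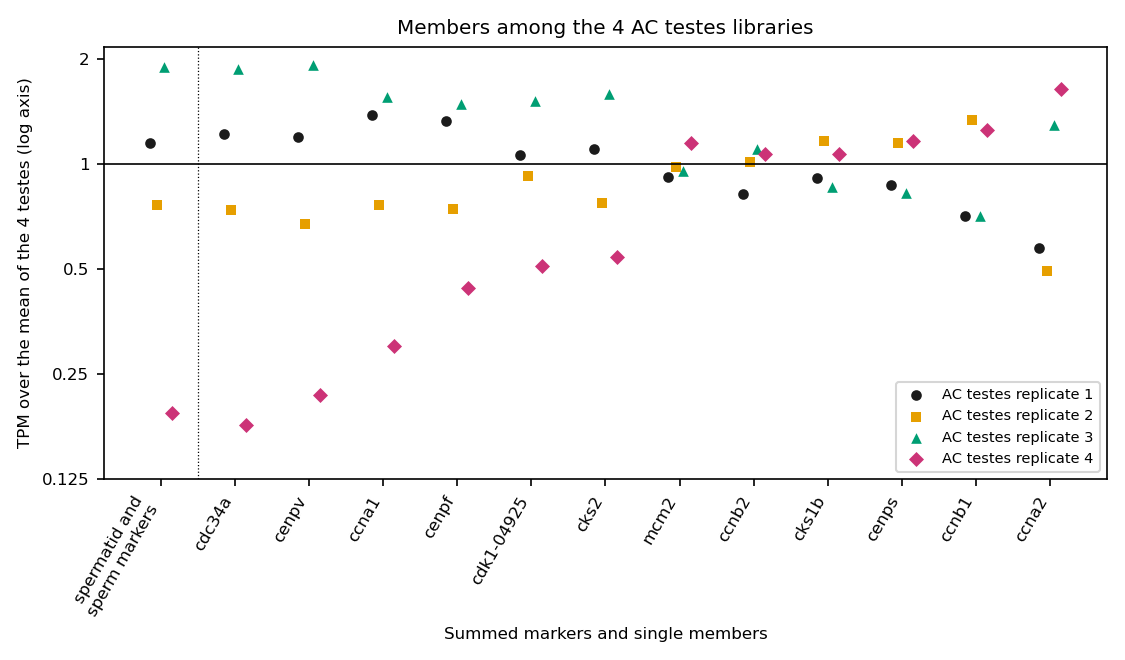
Level in each of the 4 AC testes libraries divided by their mean, on a log axis, for the summed spermatid and sperm markers (left of the dotted line) and for 12 members picked after their values were seen. Replicate 3 is highest and replicate 4 lowest for the markers, cdc34a, cenpv, ccna1, cenpf, cdk1-04925 and cks2, but not for the 6 members on the right.

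Most cycle genes outside the naming rule were also higher in the gonads than in brain. Over all genes tested, 36.5% were higher and 34.7% lower in testes than in brain, and 35.6% higher and 37.2% lower in ovary. Of 45 tested genes of a fixed list of other replication proteins (polymerases, clamp, GINS, nucleotide supply), 42 were higher and 0 lower in testes than in brain, and 43 higher and 1 lower in ovary than in brain. Of 44 other mitosis genes, 43 were higher and 0 lower in testes, and 42 higher and 1 lower in ovary. Examples are gmnn, of the licensing inhibitor geminin, with 1304 ± 204 TPM in testes (SD, n = 4), 984 ± 572 TPM in ovaries (n = 4) and 4.07 ± 1.27 TPM in brains (n = 6), and birc5b, of the chromosomal passenger survivin, with 1553 ± 150 TPM in testes, 1613 ± 213 TPM in ovaries and 0.462 ± 0.657 TPM in brains. Between testes and ovary 3 replication genes were higher and 4 lower, and 8 mitosis genes were higher and 2 lower, so that 7 of 45 and 10 of 44 were called beside 30.4% of all genes. The transcription factor gene foxm1, which drives mitotic genes, was at 35.5 ± 22.9 TPM in testes and 3.09 ± 2.04 TPM in ovaries (log2FC 3.33 ± 0.62, adjusted p = 0.00133), and mybl1, a meiotic regulator in mouse testis, at 4.63 ± 1.04 TPM in testes and 0.119 ± 0.143 TPM in ovaries (4.95 ± 0.62, adjusted p = 8.21e-05). Regulators of Cdk activity were the most mixed of these lists against brain. Of 34, 26 were higher and 1 lower in testes than in brain, and 27 higher and 4 lower in ovary than in brain. Between the gonads 3 were higher and 5 lower in testes than in ovary, beside 16.2% and 14.2% of all genes. The antiproliferative gene btg1 was lower in both gonads, at 6.16 ± 2.48 TPM in testes and 8.15 ± 4.77 TPM in ovaries against 321 ± 51.6 TPM in brains. Among the genes left out for capitals, PLK1 and CCND1 were higher in each gonad than in brain. Neither was called between the gonads (adjusted p = 0.082 and 0.620). There CCNO was lower in testes (log2FC -2.14, adjusted p = 6.87e-04) and CCNB1IP1 higher (log2FC 3.75, adjusted p = 9.89e-04).

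Male and female brains gave no call among the members. No gene at all passed edgeR's test between them (0% of all genes tested, although 564 had an unadjusted p under 0.05), and DESeq2 called 10 genes and limma 5 or 10, none of them a member. The 1 member with an unadjusted p under 0.05 was ncapd2, at 36.1, 49.05 and 50.3 TPM in male brains and 116, 61.2 and 61.9 TPM in female brains (log2FC -0.80, unadjusted p = 0.0416). The libraries of the sexes did not overlap for 17 members (15.6%), beside 14.2% of all genes tested. Of these members 15 were lower and 2 higher in male brains. The direction over all genes was not counted, so no background stands beside this split. Over all members tested the median log2FC of male over female brain was -0.013, beside 0.01 for all genes. The division genes with the highest median levels in brain were cenps, cdc27, ncapd2 and plk2b. The helicase gene mcm2 was at 2.34, 3.19 and 2.17 TPM in male brains and 2.69, 2.37 and 3.91 TPM in female brains. Cyclin B1 (ccnb1) was at 0.689, 1.93 and 0.718 TPM in male brains and 0.7602, 0.666 and 0.394 TPM in female brains. Both genes were low in every brain, and the sexes overlapped. The brains include the shallowest libraries of the data, with 3 of each sex.

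Testes of the Lake Malawi species were compared in 1 fit of genes and TE families. Of 109 members tested, 12 were higher and 1 lower in TM than in AC testes (8.87% and 9.93% of all features), against 18.8% called in all. In MZ 3 were higher and 3 lower than in AC (5.17% and 3.73%, and 8.9% in all). In TM 6 were higher and 3 lower than in MZ (3.77% and 6.45%, and 10.2% in all). The libraries did not overlap for 27 members between TM and AC (28.4% of all features), for 18 between MZ and AC (28.2%) and for 35 between TM and MZ (34.7%). The median log2FC of the members was 0.08 for TM over AC, -0.02 for MZ over AC and 0.15 for TM over MZ, beside -0.01, 0.00 and -0.01 for all features. The 3 comparisons share their libraries in pairs. Reads were mapped to the AC genome, so a gene that differs in sequence between species can lose reads in TM and MZ.

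The largest called difference among members between TM and AC testes was in ccnb1. It was at 2173, 2670.1, 2139.8 and 3436 CPM in TM, 2250.1 and 1297 CPM in MZ and 611, 1251, 575 and 1159 CPM in AC testes. All TM libraries exceeded all AC libraries (log2FC 1.53 ± 0.31, adjusted p = 0.00624), whereas MZ was not called against AC (adjusted p = 0.12). The checkpoint gene mad2l1-05723 was higher than AC in both species. It was at 118, 89.6, 109 and 102 CPM in TM, 79.6 and 138 CPM in MZ and 34.5, 41.3, 37.3 and 32.9 CPM in AC. The log2FC was 1.52 ± 0.18, adjusted p = 2.96e-04 for TM and 1.58 ± 0.21, adjusted p = 0.00129 for MZ. The other Mad2 entry, mad2l1-05690, was at 124, 122, 119 and 132 CPM in TM, 119 and 80.1 CPM in MZ and 90.98, 97.6, 94.5 and 122 CPM in AC. It was called in neither species (adjusted p = 0.215 for TM and 0.949 for MZ). Cyclin E1 (ccne1) was at 181, 176, 167 and 191 CPM in TM, 118 and 45.3 CPM in MZ and 84.7, 83.97, 73.7 and 93.1 CPM in AC. The TM libraries were all higher than the AC libraries (log2FC 1.09 ± 0.24, adjusted p = 0.00913), and the MZ libraries lay on either side of AC. Without MZ replicate 1 ccne1 was called lower in MZ than in AC (adjusted p = 0.0145). The call of ccne1 for TM over MZ (log2FC 1.13 ± 0.30, adjusted p = 0.0387) was lost without MZ replicate 2 or any TM library (adjusted p up to 0.0934).

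The TM testes calls of plk3, mcm10, cdc42se2 and ncapd3 also held when each library was left out. The gene plk3 was at 194, 157, 200.3 and 132 CPM in TM and 48.9, 57.3, 60.8 and 88.3 CPM in AC (log2FC 1.42 ± 0.30, adjusted p = 0.00759). The gene mcm10, whose protein helps to activate the loaded helicase, was at 71.6, 66.3, 67.6 and 75.97 CPM in TM and 42.3, 47.1, 44.5 and 44.2 CPM in AC (log2FC 0.66 ± 0.13, adjusted p = 0.00633). The Cdc42 effector gene cdc42se2 was also higher in TM (log2FC 0.82 ± 0.14, adjusted p = 0.00254). The condensin II gene ncapd3 was the 1 member lower in TM, at 86.7, 81.8, 86.6 and 73.6 CPM in TM and 117, 136, 123 and 143 CPM in AC (log2FC -0.66 ± 0.12, adjusted p = 0.00423). It was also lower in MZ, at 79.5 and 80.5 CPM (log2FC over AC -0.70 ± 0.16, adjusted p = 0.0194), although not without MZ replicate 2 (adjusted p = 0.0542). Higher levels in TM than in AC of ccnb2, orc4, ncapg, cenpi, cdk16 and mad2l1bp passed the test with adjusted p between 0.0219 and 0.0485. Each of these 6 was lost without TM replicate 1 or 3 or AC testes replicate 1, among others. No MCM2-7 gene was called between TM and AC or between MZ and AC by edgeR or DESeq2, with 1 and 0 genes at an unadjusted p under 0.05.

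MZ testes had a low level of mcm3ap, at 227, 198, 233 and 189 CPM in TM, 69.8 and 34.4 CPM in MZ and 205, 194, 223 and 119.5 CPM in AC. This was the 1 member call in MZ against both other species that held when each library was left out. The log2FC was -1.83 ± 0.32, adjusted p = 0.00625 for MZ over AC and 2.02 ± 0.32, adjusted p = 0.00331 for TM over MZ. The level of cdc27 was 406, 352, 403 and 415 CPM in TM, 219 and 137 CPM in MZ and 352, 314, 427 and 281 CPM in AC. It was lower in MZ than in AC (log2FC -0.95 ± 0.24, adjusted p = 0.02999) and higher in TM than in MZ (log2FC 1.15 ± 0.24, adjusted p = 0.0129). Both calls were lost without MZ replicate 2, with adjusted p of 0.137 and 0.0786 at most, and that against AC also without AC testes replicate 1, 2 or 3. The gene mad2l1bp, whose protein switches the spindle checkpoint off, was higher in MZ than in AC. It was at 384 and 536 CPM in MZ and 151, 191, 156 and 151 CPM in AC (log2FC 1.51 ± 0.21, adjusted p = 0.00177). The gene plk3 was at 230.3 and 82.9 CPM in MZ. Its call over AC (log2FC 1.29 ± 0.35, adjusted p = 0.0408) was lost without MZ replicate 1 (adjusted p = 0.478) and without AC testes replicate 1, 2 or 3.

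**Figure D5:**
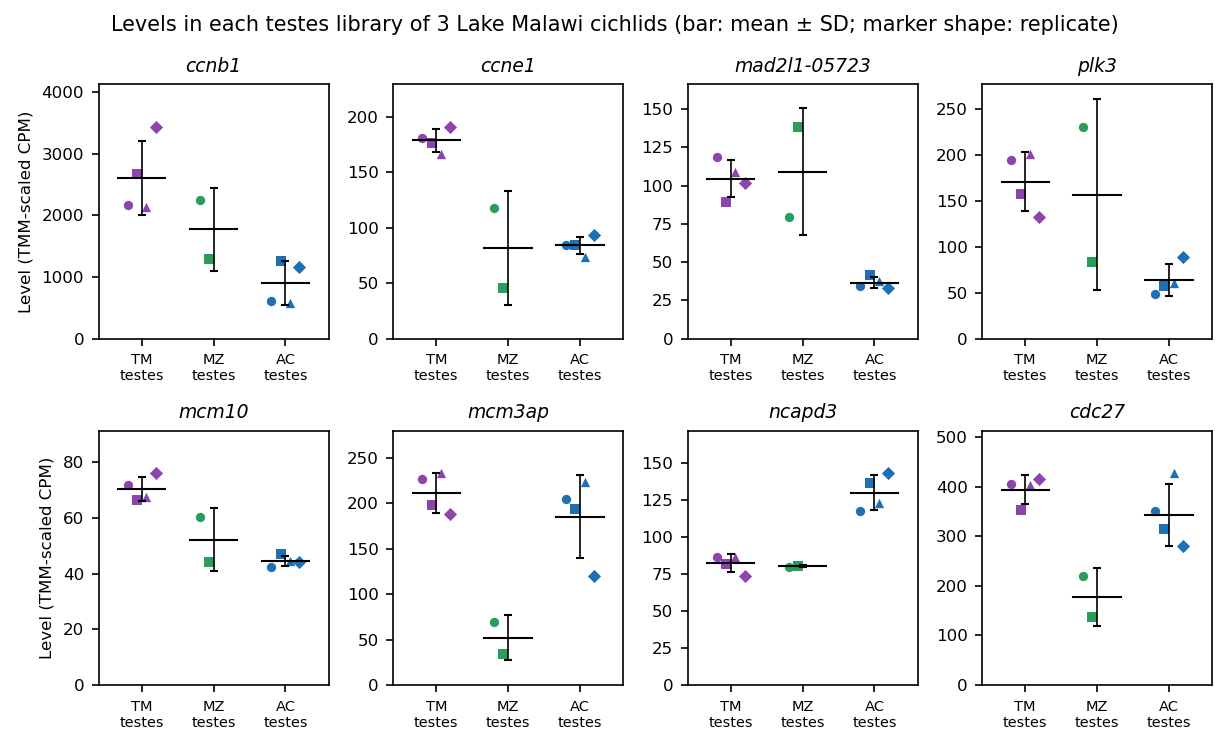
Level in TMM-scaled CPM of 8 members in each testes library, with TM left of MZ left of AC, marker shapes for replicates and a bar for the mean with its SD. TM points stand above AC points for ccnb1, ccne1, mad2l1-05723, plk3 and mcm10 and below them for ncapd3, and the MZ points lie lowest for mcm3ap and cdc27.

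The 2 MZ libraries differed widely from each other. Spermatid and sperm markers summed to 256 CPM in MZ replicate 1 and 937 CPM in replicate 2, and meiosis markers to 474 and 2166 CPM, while spermatid and sperm markers lay between 690 and 1230 CPM in TM and between 239 and 1595 CPM in AC. Among the members, cenpf was at 52.3 and 275 CPM and cks2 at 67.03 and 378 CPM in MZ replicates 1 and 2. How many features passed the test depended on which MZ library was kept, over all features as for the members. Leaving out MZ replicate 1 put the members' median log2FC of TM over MZ at 0.195, beside -0.04 for all features. Leaving out MZ replicate 2 put it at 0.171, beside 0.035 for all features. Other marker sums parted TM and MZ from AC. The 13 glia markers summed to 349 to 431 CPM in TM, 311 to 326 CPM in MZ and 125 to 181 CPM in AC. The 11 neuron markers summed to 19.4 to 37.5 CPM in TM, 13.4 to 30.95 CPM in MZ and 49.5 to 70.7 CPM in AC. The 9 Sertoli and Leydig cell markers summed to 1026 to 2053 CPM in TM, 2015 to 2446 CPM in MZ and 924 to 1299 CPM in AC, with no overlap between MZ and AC. The part of these marker differences in the members' values was not tested.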

How the data were processed

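Messenger RNA was selected by poly(A) and sequenced from both ends. Tool versions come from the submitters' processing notes and the study's methods. The authors trimmed reads with Trimmomatic 0.39 and estimated AC gene expression with Salmon 1.5.1, giving deposited estimated counts (expected counts, 78.4% of them whole) and a deposited score per gene that sums to 1000000 in each library and is called TPM here. From it 382 repeated rows were dropped, and 4 columns of authors' means were not used. For the testes of AC, MZ and TM, the authors mapped reads to the AC genome fAstCal1.2 with STAR 2.5.4b and deposited raw counts of genes and 557 TE families made with TEtranscripts. How the members that share a symbol shared reads is not given in the sources used here.

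Estimated counts were rounded and 14 AC libraries (testes, ovary, male and female brain) entered 1 edgeR 4.0.16 fit (R 4.3.3, filterByExpr, TMM, robust quasi-likelihood test). The raw counts of 10 testes libraries of AC, MZ and TM entered another. The Benjamini-Hochberg adjustment ran over all features, calls are at adjusted p under 0.05, and the standard error is that of the log2 fold change. Of the members 109 passed the filter in each fit. Brain is the mean of both sexes. Alternatives were DESeq2 1.42.0, scaling by total counts, other filters, limma 3.58.1 on log2(TPM + 1) and log2(TPM + 0.1), gonads alone, TEtranscripts counts, genes alone, a replicate block and leaving out each library. Each fit was run on simulated data for testes against ovary, TM against AC testes or male against female brain. The simulated libraries shared the same mean profile apart from a set of changed genes. Broad shifts between organs, contrasts of gonads with brain and contrasts with MZ were therefore not simulated.

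The members and all lists were chosen with earlier results of these data known. Named are a fixed set of well-known members, in each role group up to 2 called members per direction with the largest fold change, no overlap and a mean of at least 1 TPM or CPM, and related genes called in opposite directions, and, of the other pathway lists, up to 3 per direction. The members ccndx, mad1l1, cdc37, cdk7, cdk8, cdk9, cdk13, cdc42ep1b, cdc42ep3, cenpx and ccnd2b were named or plotted in a comparison after their values were seen. So were the genes with symbols in capitals that the rule left out. Positions of 100 members come from the RefSeq annotation of fAstCal1.2, matched by symbol. Correlations of same-numbered deviations lay between -0.069 and 0.011 for testes and ovary, -0.022 and 0.261 for TM and AC testes, and -0.163 and 0.129 for male and female brain. They lay between 0.059 and 0.11 for testes and male brain, and between 0.01 and 0.076 for ovary and female brain. There each was positive, and the highest of that gonad library against the brains of its sex. In no comparison were all above 0.1, so the numbers were not taken to pair the samples. Whether gonads and brains of a number came from the same fish is not given in the sources used here. No 2 replicates were identical. TM testes replicates 1 and 3 were the closest pair, with a chi-square between their counts of 6.87 per degree of freedom. The other TM pairs lay at 26.7 to 62.4, so the spread among TM libraries rests in part on a close pair. Libraries of the other species and columns of transformed TE values were not used here, and a planned search of promoters was not run because no sequences were at hand.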

Additional observations from a re-analysis of the deposited data

Results flagged for a closer look

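In groups of 4 libraries, 1 library far from the other 3 was looked for by Dixon's criterion at 95%, from the gap to the nearest library over the group's range. Of 222 member groups, 19 (8.56%) had one, where chance alone flags about 1 in 20 groups. AC ovary replicate 1 was the distant library in 6 of them. It was low for cdc20-24161 (223.5 TPM, the other ovaries 546.9 to 608.1 TPM), cdc34a (8.02 TPM, others 75.7 to 88.0 TPM), mad2l1-05723 (25.03 TPM, others 121 to 140.2 TPM) and the helicase subunit gene mcm6 (5.85 TPM, others 59.8 to 66.8 TPM). It was high for cenps (16864 TPM, others 5034 to 6253 TPM) and ccne2 (279 TPM, others 114 to 129.7 TPM).

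AC ovary replicate 4 was high for orc1 (59.3 TPM, others 39.1 to 41.1 TPM). Among AC testes, replicate 3 was high for bub3 (124 TPM, others 97.4 to 101 TPM), cdk5 (86.5 TPM, others 71.7 to 73.1 TPM), ncaph (64.1 TPM, others 43.7 to 45.6 TPM) and cdc42ep1a (2.22 TPM, others 1.60 to 1.68 TPM). Replicate 4 was high for the helicase subunit genes mcm3 (59.4 TPM, others 49.6 to 50.8 TPM) and mcm4 (72.1 TPM, others 49.1 to 52.2 TPM), and replicate 1 was low for cdc20-24161 (358 TPM, others 479 to 489 TPM). Among TM testes, replicate 4 was high for cdc6 (222 CPM, others 191 to 196 CPM) and cdk4 (29.5 CPM, others 15.6 to 17.9 CPM) and low for cdk5rap2 (20.5 CPM, others 70.7 to 71.7 CPM). Replicate 2 was high for cdk17 (6.21 CPM, others 3.39 to 3.47 CPM) and replicate 3 for cdk14 (1.42 CPM, others 0.938 to 0.974 CPM).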

How the results depend on the processing

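No named member changed direction while called, and the counts of members above brain in each gonad stayed within 1.5 times under the alternatives run. Between testes and ovary the 18 lower calls were 9 with total counts, 10 with the gonads alone, 11 with TEtranscripts counts, 3 with limma on log2(TPM + 1) and 2 with limma on log2(TPM + 0.1), where 22 and 21 members were called in all. The higher share of these calls was 50% in edgeR, 68.97% with total counts and 86.4% and 90.5% with limma. Over all genes called it was 53.4%, 66.5%, 78.1% and 79.7% under the same settings, so it rose there too. With total counts the median log2 fold change over all genes stood at 0.22 for testes over ovary and at -0.18 for TM over AC testes (0.02 and -0.01 with TMM). Members lower in ovary than in brain were 14 with either limma scale. For TM over AC testes the lower calls were 2 with DESeq2 or genes alone and 5 with total counts, and the higher calls 7 with total counts. The higher share was thus 92.3% in edgeR and 58.3% with total counts, beside 47.2% and 31.6% over all features called. Members lower in MZ than AC were 5 with DESeq2 or total counts, and members higher in TM than MZ were 3 with genes alone or total counts. In CPM the summed level of testes over ovary was -0.70 (log2) for A and B cyclins, -1.15 for D and E cyclins, 0.0024 for the kinases with Cks subunits, -0.59 for polo and Aurora kinases, 0.0182 for condensin and -0.16 for the Cdk5 group.

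With 1 library left out, 20 members (without AC testes replicate 3, 23 without replicate 1) to 43 (without AC ovary replicate 1) were called between testes and ovary. The extremes were 18.3% and 39.1% of members tested, beside 22.2% and 34.9% of all genes. Between testes and brain 90 to 93 were called (81.8% to 85.3%, beside 66.4% to 68.4% of all genes). Between ovary and brain 84 to 95 were called (77.1% to 86.4%, beside 69.2% to 77.2%), and 0 between male and female brain. Between TM and AC 7 (without TM replicate 1 or 3) to 13 were called (6.42% to 11.9%, beside 12.3% to 16.3% of all features). With both MZ libraries kept, 4 to 8 were called between MZ and AC (3.67% to 7.34%, beside 5.66% to 9.3%). Between TM and MZ 2 to 3 were then called (1.83% to 2.78%, beside 5.62% to 7.79%). The members lower in testes than ovary were then 8 to 20, those higher in TM than AC 6 to 12, those lower in MZ than AC 1 to 8 and those higher in TM than MZ 2 to 16. Where MZ kept 1 library, it was assumed to vary like the other groups. The replicate numbers are not stated to mark the same fish. With them as a replicate block the members called lower in testes than ovary were 11, the calls for TM over AC 7 (6 higher), for MZ over AC 3 (1 lower) and for TM over MZ 2 (2 higher, 0 lower). In these 3 species comparisons 6.42%, 2.75% and 1.83% of members were called, beside 13.3%, 3.02% and 4.13% of all features. That block left 80 members higher and 9 lower in testes than in brain, and 75 higher and 8 lower in ovary than in brain. The block also ended the calls of cdk5 over brain, with adjusted p = 0.0612 for testes and 0.135 for ovary. Depth limits members near 0 counts, such as cdk5r1a in gonads.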
